A study of Mus musculus with 43 samples.

Results

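Cxcl12, Cxcr4, Ackr3 and Kitl are 4 genes of the chemokine and stem cell factor signals that blood progenitors receive from their niche. They were taken by name, with no threshold on their values, and all 4 were found among the 23154 gene symbols of the stage libraries and among the 24411 of the sorted samples. Single cells labelled as endothelial cells of the mouse yolk sac were profiled with STRT, a single-cell RNA sequencing method in which an oligo-dT primer tags the 3' end of each transcript. The stage libraries numbered 2 at E8.0, 10 at E8.5, 9 at E9.0, 10 at E9.5 and 9 at E10.0 (E is the embryonic day), with 478 cells in all. A further 3 samples, 1 for each sorted population, were Gja5+Cd44+ yolk sac cells (YS, 50 cells), Gja5-Cd44+ yolk sac cells (36 cells) and Gja5+Cd44+ cells labelled CR (44 cells). CR is used as labelled, with no meaning added. No treatment, genotype or strain is stated for any group, and no stage for the sorted samples. Nor is it stated how many embryos gave a library or a sorted sample, or how the Gja5 and Cd44 gates were drawn.

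Cxcl12 is a chemokine that attracts and retains blood stem and progenitor cells, and endothelium and stroma are known sources of it. Its signalling receptor is Cxcr4, a G protein-coupled receptor, and Ackr3 is an atypical receptor that binds Cxcl12 and takes it up without coupling to G proteins. Kitl, stem cell factor, is the ligand of the receptor tyrosine kinase Kit, and Kitl made by endothelial cells is known to sustain blood stem cells in adult marrow. The Cxcl12 and Cxcr4 pair also guides endothelial cells as arteries form. The questions addressed here are in which stages, endothelial cells and sorted populations the transcripts of these genes were found.

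In the GENCODE M21 annotation of GRCm38 all 4 genes are protein coding. Cxcl12 lies on the plus strand at chr6:117168535-117181367, Cxcr4 on the minus strand at chr1:128588199-128592293, Ackr3 on the plus strand at chr1:90203980-90216751 and Kitl on the plus strand at chr10:100015630-100100416. The 250 bases upstream of the RefSeq start (GRCm38.p6) are shown for Cxcl12 and Cxcr4, the ligand and its signalling receptor. The Cxcl12 window is chr6:117168285-117168534 and the Cxcr4 window is chr1:128592300-128592549, which is printed on the minus strand. Both are written 5' to 3', and capitals mark matches to the motif letters that follow them.
Cxcl12: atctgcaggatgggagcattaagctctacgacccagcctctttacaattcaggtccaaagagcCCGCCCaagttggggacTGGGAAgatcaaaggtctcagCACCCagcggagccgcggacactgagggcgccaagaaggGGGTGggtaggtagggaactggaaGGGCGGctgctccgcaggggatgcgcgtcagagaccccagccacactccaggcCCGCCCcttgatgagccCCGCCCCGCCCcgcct
Cxcr4: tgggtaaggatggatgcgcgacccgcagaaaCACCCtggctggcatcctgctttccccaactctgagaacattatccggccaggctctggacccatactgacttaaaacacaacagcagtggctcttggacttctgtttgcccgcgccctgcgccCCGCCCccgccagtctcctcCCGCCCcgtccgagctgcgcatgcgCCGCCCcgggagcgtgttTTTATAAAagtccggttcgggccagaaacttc
Both strands were searched for the letters of 7 motifs, and the share of the 32851 RefSeq promoters of the same length that hold each is given with it. The motif of RBPJ, the effector of Notch signalling, was TGGGAA, found in 21.6% of promoters. That of KLF factors, some of which respond to blood flow, was CACCC, found in 52.0%. The GC box was GGGCGG, found in 32.7%, and the TATA box was searched as TATAAA, found in 12.4%. SOX factors were represented by ACAAAG, found in 16.5%. The hypoxia factor HIF was represented by ACGTG, found in 16.6%, and ETS factors by AGGAAG, found in 29.5%. The Cxcl12 window held 1 RBPJ match, 2 KLF matches and 5 GC box matches, a pair of which overlap, and it held no match to TATAAA. The Cxcr4 window held 1 KLF match, 3 GC box matches and 2 TATA matches, which overlap each other on opposite strands. No match to the SOX, HIF or ETS letters was found in either window. A match describes the letters of this window and is not a binding site.

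Levels are given as CPM, the counts of a gene scaled to 1e+06 counts of a cell or of all cells of a library. A cell is called positive for a gene at 10 CPM or more. Cdh5, the adhesion molecule of endothelial junctions, was positive in 418 of the 478 stage cells, and of those 418 cells 81 were positive for Gja5, which encodes an arterial gap junction protein. The Cdh5-positive cells numbered 53 of 57 at E8.0, 117 of 132 at E8.5, 88 of 97 at E9.0, 78 of 110 at E9.5 and 82 of 82 at E10.0, and 3 of the 10 E9.5 libraries held fewer than 3 of them. Among them, 51 cells at E8.0 (96.2%), 112 at E8.5 (95.7%), 81 at E9.0 (92.05%), 58 at E9.5 (74.4%) and 49 at E10.0 (59.8%) were also positive for at least 1 of the blood genes Gata1, Spi1, Ptprc and Itga2b. A library held 2172087 to 42245455 counts and a cell 102221 to 2420388. Cells hold many counts per detected gene (71.5% of the values above 0 were 10 or more), and although the primers carried molecular identifiers the counts may include copies made by PCR, so every interval from counts covers counting error only. Levels of different genes were not compared with each other.

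Cxcl12, the chemokine ligand, was absent or near 0 in most libraries and high in a few, which came from E9.0 onwards. It was at 0 CPM in both E8.0 libraries. Over the 10 E8.5 libraries the lowest value was 0, the median 0 and the highest 1.56 CPM, with a mean of 0.261 ± 0.496 (SD). The 9 E9.0 libraries had a lowest value of 0, a median of 0.253 and a highest value of 15.3 CPM, with a mean of 2.65 ± 5.33 (SD). These groups overlapped, since the E9.0 range began at the 0 that most E8.5 libraries also showed. The 10 E9.5 libraries ran from 0 through a median of 0.172 to 24.6 CPM, with a mean of 5.25 ± 8.99 (SD). In the 9 E10.0 libraries the lowest value was 0, the median 0.460 and the highest 252.6 CPM, with a mean of 32.1 ± 82.9 (SD). In E10.0, 4 of 9 libraries lay above the highest E8.5 library and the rest fell within the E8.5 range, so the stages overlapped.

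Cxcl12 was higher at E10.0 than at E8.5 in summed counts, by 6.51 ± 1.66 (log2 fold change ± SE, n = 9 and 10 libraries, adjusted p = 0.00299, edgeR quasi-likelihood test with Benjamini-Hochberg adjustment). All 4 members were called higher in this comparison, in which 31% of the 13929 genes tested were called and 15.2% were called higher. The Cxcl12 value rested on few cells: in E10.0 replicate 8, the library with the highest level, a single cell of 1068 CPM carried nearly all of the counts. Without that library the log2 fold change was 3.83 with an adjusted p of 0.0574 in edgeR. In Cdh5-positive cells alone (37 libraries with at least 3 such cells) the log2 fold change was 6.38 ± 1.69 (SE, edgeR adjusted p = 0.00569), against 3.70 (edgeR adjusted p = 0.0779) without E10.0 replicate 8. Of the 13407 genes tested there, 24.6% were called and 12.2% were called higher. In a sum over cells, fewer cells that express a gene and less RNA per cell cannot be told apart. Where the labels do not say that libraries came from separate embryos, these p-values measure the spread between libraries, which may be technical.

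Cxcr4, the receptor of Cxcl12, was at or below 1.46 CPM in every library of E8.0, E8.5 and E9.0. Its highest library was at 11.2 CPM at E9.5 and at 7.45 CPM at E10.0. The E8.0 libraries were at 0.482 and 0.130 CPM. In E8.5 the lowest and median values were 0 and the highest was 0.276 CPM, with a mean of 0.0300 ± 0.0867 (SD, n = 10). The E9.0 libraries ran from 0 through a median of 0.177 to 1.46 CPM, with a mean of 0.407 ± 0.491 (SD, n = 9). The E8.5 and E9.0 libraries overlapped, and 7 of the 9 E9.0 libraries were above 0. At E9.5 the lowest value was 0, the median 0.445 and the highest 11.2 CPM, with a mean of 1.64 ± 3.39 (SD, n = 10). The E10.0 libraries ran from 0 through a median of 1.26 to 7.45 CPM, with a mean of 2.89 ± 3.12 (SD, n = 9). Of these, 6 of 9 lay above the highest E8.5 library and 3 were at 0, so the stages overlapped. The log2 fold change of E10.0 over E8.5 was 6.21 ± 1.36 (SE, edgeR adjusted p = 0.000635), and it was 6.02 ± 1.37 (SE, edgeR adjusted p = 0.00149) in Cdh5-positive cells. Cxcr4 was called with any 1 library left out, with edgeR adjusted p values of up to 0.00152 in all cells and 0.00349 in Cdh5-positive cells. The E8.5 side was near 0, with 1 count each in replicates 4 and 10 and none in the other libraries, so the size of the fold change is uncertain. In E10.0 replicates 1, 4, 6, 7 and 8, 1 cell gave at least 78.3% of the Cxcr4 counts, and in replicate 9 36.5%.

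Ackr3, the receptor that takes up Cxcl12 without G protein signalling, was found at low levels, and was above 0 in 1 of 2 libraries at E8.0, 3 of 10 at E8.5, 6 of 9 at E9.0, 7 of 10 at E9.5 and 4 of 9 at E10.0. It was at 0.138 and 0 CPM in the E8.0 libraries. The E8.5 libraries had a lowest and a median value of 0 and a highest value of 0.734 CPM, the E9.0 libraries ran from 0 through a median of 0.141 to 4.13 CPM, and the E9.5 libraries from 0 through 0.235 to 2.51 CPM. At E10.0 the lowest and median values were 0 and the highest was 24.9 CPM. These groups overlapped: 5 of the 9 E10.0 libraries were at 0, and 2 of 9 lay above the highest E8.5 library. The highest E10.0 value, in replicate 7, came from 1 cell of 187.4 CPM that was not Gja5-positive. E10.0 exceeded E8.5 by a log2 fold change of 4.33 ± 1.52 (SE, edgeR adjusted p = 0.0273), and without E10.0 replicate 7 it was 1.01 with an adjusted p of 0.600. In Cdh5-positive cells it was 4.16 ± 1.58 (SE, edgeR adjusted p = 0.0487) and 0.847 (edgeR adjusted p = 0.707) without that library. DESeq2 on the same sums of all cells gave 0.99 with an adjusted p of 0.700.

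Kitl, stem cell factor, differed from the chemokine genes in that it was above 0 in every one of the 40 libraries. The E8.0 libraries were at 14.3 and 20.9 CPM. The E8.5 libraries ran from 2.88 through a median of 10.1 to 37.7 CPM, with a mean of 16.4 ± 13.02 (SD, n = 10), and the E9.0 libraries from 0.688 through 26.04 to 95.7 CPM, with a mean of 31.1 ± 30.2 (SD, n = 9). The ranges of these stages overlapped. The E9.5 libraries ran from 0.264 through 7.17 to 87.8 CPM, with a mean of 21.6 ± 33.6 (SD, n = 10). At E10.0 the lowest value was 36.7, the median 71.3 and the highest 153.1 CPM, with a mean of 83.5 ± 41.2 (SD, n = 9). In E10.0, 8 of 9 libraries lay above the highest E8.5 library, and the lowest E10.0 library lay just below it. The log2 fold change of E10.0 over E8.5 was 2.23 ± 0.73 (SE, edgeR adjusted p = 0.0188) and held its call when any 1 library was left out (adjusted p up to 0.0338). In Cdh5-positive cells it was 1.997 ± 0.686 (SE, edgeR adjusted p = 0.0302). There the call was lost without E10.0 replicate 1 (adjusted p = 0.0536), E8.5 replicate 4 (0.0510) or E8.5 replicate 5 (0.0505), and with Cdh5 at 100 CPM or more the log2 fold change was 1.21 (edgeR adjusted p = 0.0768).

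**Figure D1:**
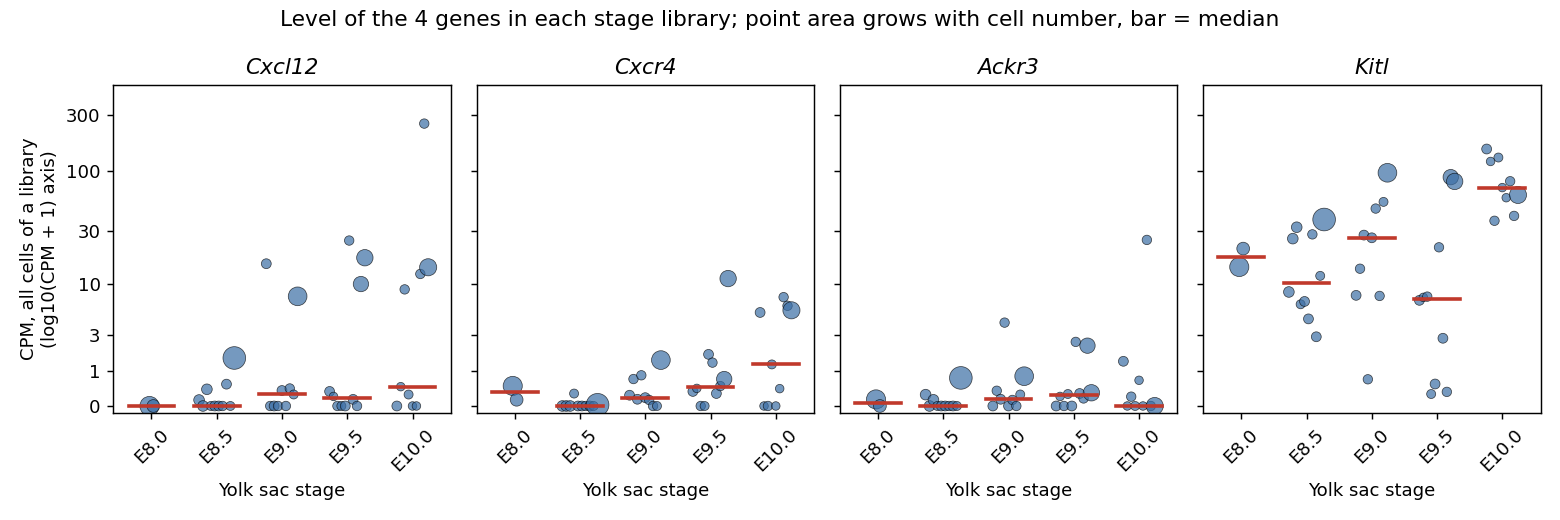
CPM of the 4 genes over all cells of each stage library, on a log10(CPM + 1) axis, by stage. Each point is a library, its area grows with the number of cells, and the bar is the median of the stage. Kitl was above 0 in all 40 libraries, while the E8.5 medians of the other 3 genes were at 0.

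Between neighbouring stages no member passed the test in the edgeR fit, so the order of the stage levels is given as a description. Of the 13929 genes tested, 0% were called between E8.5 and E8.0, 0.524% between E9.0 and E8.5, 0% between E9.5 and E9.0 and 26.8% between E10.0 and E9.5. In the comparisons with 0% called, 430 genes (E8.5 against E8.0) and 1073 genes (E9.5 against E9.0) had an unadjusted p under 0.05, and DESeq2 called 40 and 4 genes. In Cdh5-positive cells the shares were 0%, 0.224%, 0.00746% and 7.64% in the same order, with 324 genes at an unadjusted p under 0.05 and 22 DESeq2 calls between E8.5 and E8.0. The mean level of Cxcl12 was higher at each later stage, but neighbouring stages overlapped and did not pass the test. In all cells Kitl came nearest to a call, at 1.86 ± 0.72 (log2 fold change of E10.0 over E9.5 ± SE, edgeR adjusted p = 0.0517). In Cdh5-positive cells the same Kitl comparison gave 1.02 ± 0.75 (SE, edgeR adjusted p = 0.429). For Cxcr4 between E9.0 and E8.5 the log2 fold change was 3.53 ± 1.18 (SE, edgeR adjusted p = 0.155). The libraries are titled by batch number, and the labels do not say what a batch is. When libraries of 1 stage with consecutive batch titles were summed to 1 sample, no member was called between E10.0 and E8.5 and 40 genes were called in all.

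Other cell types moved with stage in the same libraries. Between E10.0 and E8.5, 31% of the 13929 genes tested were called and 15.2% were called higher, which is the background for the marker counts below. Summed over 14 endothelial marker genes, the level was 1144 to 3352 CPM in the E8.5 libraries and 4786 to 7844 CPM at E10.0. In the E9.5 libraries this sum ran from 468.8 to 6551 CPM. Of the 14 genes 13 rose from E8.5 to E10.0. All 10 arterial markers rose, from 104.1 to 348.0 CPM in sum at E8.5 to 831.0 to 3410 CPM at E10.0. Of 5 venous markers 4 rose, from sums of 74.9 to 381.7 CPM to sums of 498.6 to 1465 CPM. Of 8 erythroid markers 7 fell, from sums of 159.8 to 30282 CPM to sums of 48.8 to 936 CPM. Of 8 megakaryocyte markers 7 fell, from sums of 122.2 to 702 CPM to sums of 7.30 to 228.8 CPM. Of 8 leukocyte and progenitor markers 4 fell, and their sums were 43.2 to 772 CPM at E8.5 and 0 to 497.7 CPM at E10.0. Mesenchymal markers, of a cell type known to make Cxcl12 and Kitl, summed to 11.8 to 66.4 CPM at E8.5 and 10.5 to 121.5 CPM at E10.0, with 1 of the 10 tested higher and 1 lower. Visceral endoderm markers summed to 2.76 to 62.1 CPM at E8.5 and 0.921 to 59.9 CPM at E10.0, with none of the 6 tested called. Median counts per cell were 730568 at E8.5 and 417392 at E10.0. The part of cell makeup and depth in the stage values of the 4 genes was not tested, beyond the comparison within Cdh5-positive cells.

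Kitl levels ranked with those of endothelial genes across libraries. The 3 genes whose library levels ranked most like those of Kitl over the 40 libraries were Pecam1, an endothelial adhesion molecule (Spearman's rho 0.907), Fam129b (0.907) and Fstl1 (0.900), and in the 37 libraries of Cdh5-positive cells they were Fam129b (0.884), Pecam1 (0.857) and Fstl1 (0.846). Within stages the rho of Kitl with Pecam1 was 0.794 over 10 E8.5 libraries, 0.917 over 9 E9.0 libraries and 0.770 over 10 E9.5 libraries, but 0.217 over the 9 E10.0 libraries. Set against each 1000 CPM of the summed endothelial markers, Kitl was at 2.52 to 21.6 CPM (median 7.37) in the E8.5 libraries and at 5.86 to 25.0 CPM (median 12.1) in the E10.0 libraries, which overlapped over most of their ranges. These correlations describe points that share libraries, depth and cell number.

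**Figure D2:**
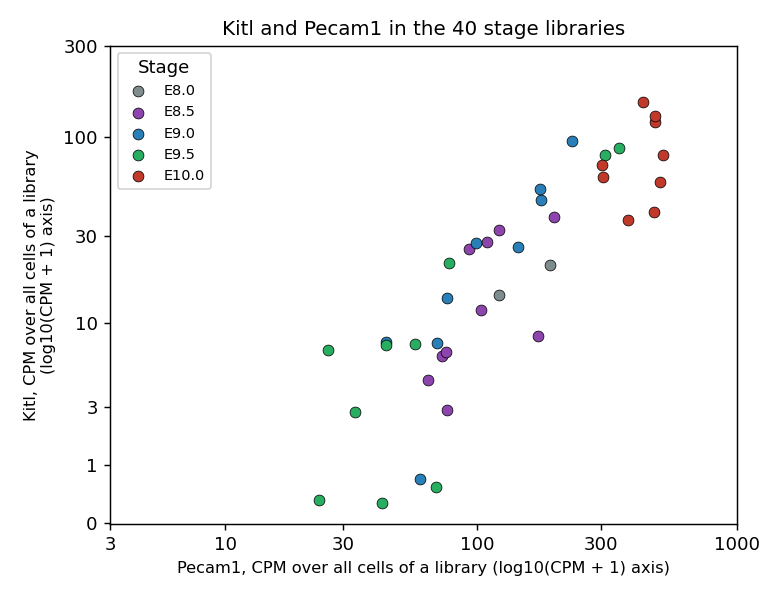
Kitl against Pecam1, each as CPM over all cells of a library on log10(CPM + 1) axes. Each point is 1 of the 40 stage libraries, coloured by stage. The E10.0 libraries lie at the upper right, and E9.5 libraries lie at both ends.

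The genes most like Cxcl12 over the 40 libraries were Ace, angiotensin-converting enzyme (rho 0.658), Slco3a1 (0.602) and Nos2 (0.599), and in Cdh5-positive cells Slit2, a guidance ligand (0.715), Lss (0.669) and Nos2 (0.661). Those most like Cxcr4 were Stmn2 (0.684), Mysm1 (0.683) and Sepw1 (0.647), and in Cdh5-positive cells Mysm1 (0.708), Ext1 (0.677) and Hcfc1r1 (0.676). For Ackr3 they were Mxd3 (0.635), Exoc1 (0.626) and Tatdn3 (0.605), and in Cdh5-positive cells Mxd3 (0.665), the chemokine scavenger Ackr2 (0.618) and Pcdhgb2 (0.608). Most libraries were at or near 0 for these 3 members, so these ranks rest on few libraries. The rho with Gja5 over the 40 libraries was 0.541 for Cxcl12, 0.498 for Cxcr4, 0.278 for Ackr3 and 0.668 for Kitl, while Cxcl12 and Cxcr4 had a rho of 0.315 with each other.

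In single cells, Cxcl12 and Cxcr4 were found mostly where Gja5 was found. Of the 418 Cdh5-positive cells, 19 were positive for Cxcl12, and 16 of these were Gja5-positive. These 16 make up 19.8% of the 81 Gja5-positive cells (exact Clopper-Pearson 95% interval 11.7% to 30.1%), whereas 3 of the 337 other Cdh5-positive cells were positive (0.890%, interval 0.184% to 2.58%). Cxcr4 was positive in 16 cells, of which 13 were Gja5-positive, or 16.0% of the Gja5-positive cells (interval 8.83% to 25.9%) against 0.890% of the rest. Among the 60 cells that were not Cdh5-positive, 0 were positive for Cxcl12 or Cxcr4, which allows a share of up to 5%. Median counts per cell were 462899 in Gja5-positive cells, 567754 in the other Cdh5-positive cells and 933139 in the cells that were not Cdh5-positive. The 16 Gja5-positive cells with Cxcl12 came from 9 libraries, and cells of 1 library are not independent.

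The cells with the highest Cxcl12 levels had 1068 CPM (E10.0 replicate 8), 610.1 CPM (E10.0 replicate 9), 452.4 CPM (E9.0 replicate 1), 399.0 CPM (E9.5 replicate 9) and 388.7 CPM (E9.5 replicate 6). All 5 were strongly Gja5-positive, with Gja5 at 1428, 1152, 811.5, 1369 and 1926 CPM. The 3 Cxcl12-positive cells outside the Gja5-positive group had 33.7, 33.6 and 26.8 CPM, near the low end of the positive cells. The highest Cxcr4 level was 154.1 CPM, in a Gja5-positive cell of E9.5 replicate 10. Ligand and receptor were positive together in 6 cells, which is 31.6% of the Cxcl12-positive and 37.5% of the Cxcr4-positive cells. Just around the threshold, 5 cells had Cxcl12 at 5 to 10 CPM and 1 at 10 to 20 CPM, and for Cxcr4 these numbers were 3 and 2.

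Ackr3 was positive in 9 Cdh5-positive cells, of which 5 were Gja5-positive, and Kitl in 203, of which 52 were Gja5-positive. The Ackr3 shares were 6.17% of the Gja5-positive cells (interval 2.03% to 13.8%) and 1.19% of the rest (interval 0.324% to 3.01%). The Kitl shares were 64.2% (interval 52.8% to 74.6%) and 44.8% (interval 39.4% to 50.3%). Of the 60 cells that were not Cdh5-positive, 4 had Kitl at 10 CPM or more (6.67%, interval 1.85% to 16.2%). The shares of all 4 genes over these cells pool stages and libraries, and cells of 1 library are not independent. Gja5-negative cells numbered 52 at E8.0 and 111 at E8.5, whereas Gja5-positive cells numbered 1 and 6. By stage, Kitl was positive in 15 of 17 Gja5-positive cells at E9.0, 18 of 32 at E9.5 and 15 of 25 at E10.0, against 31 of 71, 17 of 46 and 38 of 57 of the Gja5-negative cells. Of the 19 Cxcl12-positive cells 13 were also positive for Kitl, as were 9 of the 16 Cxcr4-positive and 5 of the 9 Ackr3-positive cells. Near the threshold, 2 cells had Ackr3 at 5 to 10 CPM and 4 at 10 to 20 CPM, and for Kitl these numbers were 16 and 20.

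**Figure D3:**
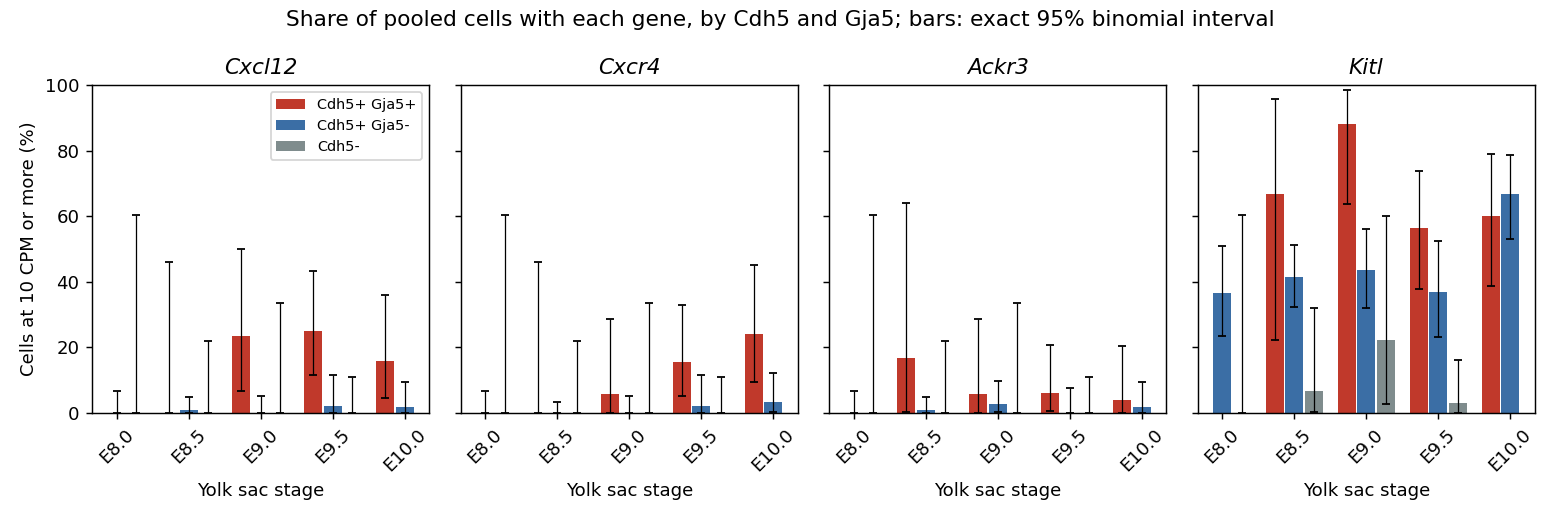
Percent of cells at 10 CPM or more for each gene, by stage, in Cdh5-positive cells with and without Gja5 and in the remaining cells. Cells are pooled over the libraries of a stage, error bars are exact 95% Clopper-Pearson intervals, and groups under 4 cells are left out. Cxcl12 and Cxcr4 shares at E9.5 and E10.0 are higher in Gja5-positive cells, whereas Kitl shares at E10.0 are 60% and 66.7%.

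Compared within the same library, Cxcr4 was higher in Gja5-positive than in Gja5-negative Cdh5-positive cells in 6 of 6 libraries, and Cxcl12 in 5 of 6. A library entered where each side held 3 cells or more. Cxcl12 was at 483.4 CPM in the Gja5-positive and 0.712 CPM in the Gja5-negative cells of E10.0 replicate 8, at 99.5 and 0.151 CPM in E10.0 replicate 9 and at 41.1 and 0.114 CPM in E9.5 replicate 9. It was at 24.1 and 0.998 CPM in E9.5 replicate 10, at 29.7 and 0.127 CPM in E9.0 replicate 9. In E8.5 replicate 10 it was at 0 and 2.01 CPM. The 5 libraries from E9.0 onwards thus had all of their Gja5-positive values above all Gja5-negative values, and the E8.5 library went the other way. With libraries blocked, edgeR gave a log2 fold change of 6.66 ± 1.48 (SE, n = 6 libraries), with an unadjusted p of 0.000636 and an adjusted p of 0.193, so Cxcl12 was not called. Only 0.16% of the 10021 genes tested were called in this comparison. DESeq2 gave 7.26 with an adjusted p of 4.72e-05, edgeR with no filter on low counts gave 6.67 with 2.08e-06, edgeR without cells positive for blood genes gave 8.06 with 0.00124, and edgeR without E8.5 replicate 10 gave 7.73 with 0.00086. Over all alternatives the adjusted p ran from 2.08e-06 to 0.894. An exact sign-flip permutation test over the libraries on log2(CPM + 1), two-sided and chosen after the data were seen, gave p = 0.0625.

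Cxcr4 was at 11.1 and 0.712 CPM on the Gja5-positive and Gja5-negative sides of E10.0 replicate 8, at 28.1 and 1.82 CPM in E10.0 replicate 9 and at 2.91 and 0 CPM in E9.5 replicate 9. It was at 15.8 and 0 CPM in E9.5 replicate 10, at 5.80 and 0 CPM in E9.0 replicate 9 and at 0.220 and 0 CPM in E8.5 replicate 10. The difference had the same direction in every library and was smallest in the E8.5 library. In edgeR the log2 fold change was 5.82 ± 1.43 (SE, n = 6 libraries), with an unadjusted p of 0.00139 and an adjusted p of 0.268, so Cxcr4 was not called, while DESeq2 gave 6.25 with an adjusted p of 0.000626. Over the edgeR alternatives the adjusted p ran from 0.167 to 0.999. The exact permutation test gave p = 0.0312, the smallest value that 6 libraries allow, and this is 1 of 4 members tested.

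Kitl did not separate the sides in the same way. It was at 66.5 and 12.1 CPM in E10.0 replicate 8, at 74.7 and 59.5 CPM in E10.0 replicate 9 and at 122.9 and 76.7 CPM in E9.5 replicate 9. It was at 78.5 and 85.6 CPM in E9.5 replicate 10, at 74.2 and 102.9 CPM in E9.0 replicate 9 and at 60.4 and 39.99 CPM in E8.5 replicate 10. Kitl was thus higher on the Gja5-positive side in 4 of 6 libraries, and the sides overlapped. In edgeR the log2 fold change was 0.50 ± 0.38 (SE, n = 6 libraries, adjusted p = 0.963), with a 95% interval of -0.24 to 1.24, and the exact permutation test gave p = 0.219. Ackr3 was too low to pass the filter, and it was higher on the Gja5-positive side in 3 libraries and lower in 1 (exact permutation p = 0.25).

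**Figure D4:**
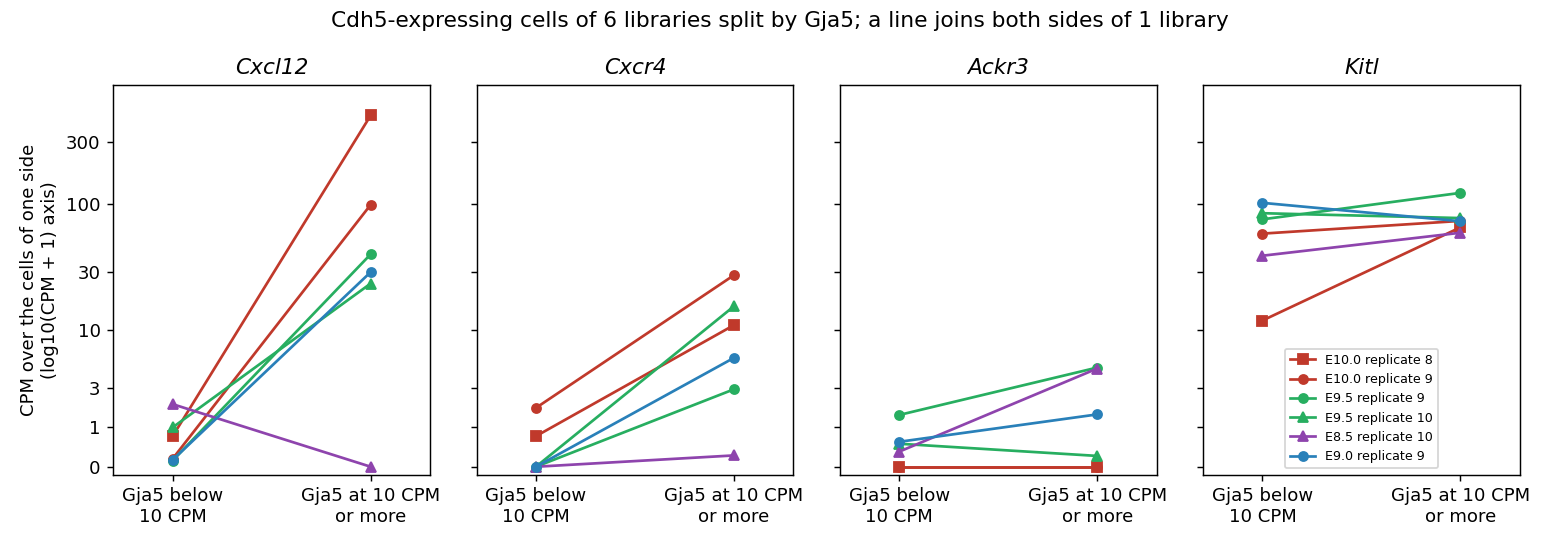
CPM of each gene over the Gja5-negative and Gja5-positive Cdh5-positive cells of 6 libraries, on a log10(CPM + 1) axis. A line joins both sides of a library and is coloured by stage. For Cxcr4 all 6 lines rise, for Cxcl12 5 of 6 do, and the Kitl lines cross.

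The difference of these splits between E10.0 (2 libraries) and earlier stages (4 libraries) was tested as an interaction in edgeR, in which 0% of the 10021 genes were called, with 696 genes at an unadjusted p under 0.05 and 123 DESeq2 calls. The interaction was 4.30 ± 2.67 on the log2 scale for Cxcl12 (SE, adjusted p = 0.764), -3.64 ± 1.90 for Cxcr4 (adjusted p = 0.738) and 1.22 ± 0.75 for Kitl (adjusted p = 0.760). Arterial markers summed to 1009 to 4158 CPM on the Gja5-positive and 306.5 to 1305 CPM on the Gja5-negative sides. The marker calls that follow are from the Gja5 split and not from the interaction, and 0.16% of the 10021 genes tested were called in that split. Gja5 itself, which drew the line, and Gja4, Hey1, Efnb2, Unc5b and Sox17 were called higher, or 6 of the 8 arterial markers tested. Endothelial markers summed to 3877 to 7078 CPM and 3741 to 6130 CPM, erythroid markers to 57.5 to 1815 CPM and 48.4 to 40024 CPM, leukocyte and progenitor markers to 12.4 to 79.2 CPM and 3.74 to 572.3 CPM, and mesenchymal markers to 4.15 to 306.9 CPM and 6.41 to 61.7 CPM. Of the endothelial markers Sox17, which is on both lists, was called, and none of the 4 erythroid, 4 leukocyte and progenitor and 3 mesenchymal markers tested was called. Their part in the split values was not tested. Without cells positive for a blood gene, Cxcl12 was positive in 7 of 22 Gja5-positive and 0 of 45 Gja5-negative cells, and Cxcr4 in 8 of 22 and 1 of 45. These Gja5-positive cells were all of E9.5 and E10.0, whereas the Gja5-negative cells came from every stage. At E9.5 Cxcl12 was positive in 5 of 11 and 0 of 9 cells and Cxcr4 in 3 of 11 and 0 of 9. At E10.0 Cxcl12 was positive in 2 of 11 and 0 of 22 cells and Cxcr4 in 5 of 11 and 1 of 22.

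Kitl was higher in Cdh5-positive cells than in the other cells of the same library in 7 of 8 libraries. The Cdh5-positive sides were at 22.4 ± 31.4 CPM and the other sides at 2.11 ± 2.94 CPM (SD, n = 8 libraries). The pairs, Cdh5-positive side first, were 0.705 and 8.83 CPM in E9.5 replicate 1, 10.7 and 0.740 CPM in E9.5 replicate 3, 93.1 and 1.08 CPM in E9.5 replicate 6 and 4.11 and 0.974 CPM in E9.5 replicate 7. In the earlier stages they were 5.13 and 3.82 CPM (E8.5 replicate 6), 6.61 and 0.358 CPM (E8.5 replicate 8), 42.5 and 0.621 CPM (E8.5 replicate 10) and 16.7 and 0.451 CPM (E8.0 replicate 1). The sides overlapped through E9.5 replicate 1, the library that went the other way. The log2 fold change in edgeR was 3.32 ± 1.17 (SE, adjusted p = 0.251), not a call, where 1.21% of 9120 genes were called. DESeq2 gave 3.36 with an adjusted p of 0.00166. The exact permutation test, here too chosen after the data were seen, gave p = 0.0469 for Kitl, which is 1 of 4 members tested. The other members did not pass edgeR's filter on low counts, and their exact permutation p values were 0.5 for Cxcl12, 0.438 for Cxcr4 and 0.375 for Ackr3.

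To set the shares of positive cells side by side at 1 depth, every cell was thinned to 100000 counts, which left out 0 cells, and a cell with at least 1 remaining count was taken as having the gene. The share of Cdh5-positive cells with Kitl was 70.9 ± 22.1% over the 9 E10.0 libraries and 32.3 ± 12.4% over the 10 E8.5 libraries (SD). The E10.0 libraries ran from 28.6% through a median of 71.4% to 100% and the E8.5 libraries from 16.7% through 27.5% to 58.9%, and they overlapped. The difference of 38.5 percentage points had p = 0.00039 in an exact permutation test over the libraries, two-sided. For Cxcl12 the shares were 12.1 ± 15.6% and 3.18 ± 6.68% (exact permutation p = 0.126), for Cxcr4 7.89 ± 10.4% and 1.85 ± 5.24% (exact permutation p = 0.195) and for Ackr3 2.98 ± 5.92% and 0.357 ± 1.13% (exact permutation p = 0.421). Without thinning, at 10 CPM or more, the Kitl shares were 67.7 ± 19.6% and 31.2 ± 12.6%, those of Cxcl12 6.70 ± 10.2% and 0.179 ± 0.565%, those of Cxcr4 7.54 ± 10.1% and 0%, and those of Ackr3 2.98 ± 5.92% and 0.357 ± 1.13%. Thinned to 50000 counts, the Cxcr4 difference was 7.83 percentage points (exact permutation p = 0.0217), and without E8.5 replicate 3 the Cxcl12 difference at 100000 counts was 10.8 points (exact permutation p = 0.0498). No other share value changed side of 0.05, out of 8 at other settings and 76 with 1 library left out. With 1 library left out, the exact permutation p ran from 0.0498 to 0.265 for Cxcl12 and from 0.0824 to 0.412 for Cxcr4. The E9.5 shares at 100000 counts were not tested (n = 7 libraries). They were 15.6 ± 25.8% for Cxcl12, 14.1 ± 14.4% for Cxcr4, 6.48 ± 12.7% for Ackr3 and 40.9 ± 34.7% for Kitl (SD). For Cxcl12, Cxcr4 and Ackr3 these means lay above those of E10.0, and for Kitl below.

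In the sorted samples, Cxcl12 was high in 1 of the 3 populations. With 1 sample for each population there is no test, and intervals are exact and cover counting error only. The summed level of Cxcl12 was 183.6 CPM in Gja5+Cd44+ YS cells (Poisson 95% interval 175.8 to 191.6), 11.6 CPM in Gja5-Cd44+ YS cells (9.43 to 14.2) and 1.64 CPM in Gja5+Cd44+ CR cells (0.918 to 2.71). Positive cells numbered 16 of 50 (32%, Clopper-Pearson interval 19.5% to 46.7%), 3 of 36 (8.33%, 1.75% to 22.5%) and 1 of 44 (2.27%, 0.0575% to 12.02%). Cxcl12 was thus 15.8-fold higher in Gja5+Cd44+ YS than in Gja5-Cd44+ YS cells (12.9 to 19.6) and 111.9-fold higher than in CR cells (67.7 to 200.3). Of the 97 counts in the Gja5-Cd44+ YS sample 96.9% came from 1 cell, and the highest level of a cell was 254.8 CPM. In Gja5+Cd44+ YS 1 cell gave 34.1% of the counts, and the highest level was 1525 CPM. Without the cell of highest level in each sample, the ratio of these populations was 387.3-fold. Without cells positive for a blood gene it was 2.33-fold, with 9 Gja5-Cd44+ YS cells left. Among genes with a mean of at least 10 CPM, 17.4% were more than 2-fold higher and 14.9% more than 2-fold lower in Gja5+Cd44+ YS than in Gja5-Cd44+ YS cells. Against CR cells these shares were 12.4% and 12.7%.

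Cxcr4 was found in both Gja5+Cd44+ populations and in 0 of the 36 Gja5-Cd44+ YS cells. Its level was 27.9 CPM in Gja5+Cd44+ YS cells (interval 24.9 to 31.1), with 16 of 50 cells positive (32%), and 14.7 CPM in CR cells (interval 12.3 to 17.4), with 12 of 44 positive (27.3%, 14.96% to 42.8%). The 0 cells of Gja5-Cd44+ YS allow a share of up to 8.33% and a level of up to 0.360 CPM (3 counts over the sample). Against that floor Cxcr4 was at least 77.5-fold higher in Gja5+Cd44+ YS and at least 40.8-fold higher in CR cells. Without cells positive for a blood gene these bounds were 12.9-fold and 14.7-fold. In CR against Gja5-Cd44+ YS cells, 17.1% of genes were more than 2-fold higher and 13.2% more than 2-fold lower. Between the Gja5+Cd44+ populations Cxcr4 was 1.90-fold higher in YS (1.55 to 2.34) by summed counts, but 1.07-fold higher by the mean of the cells' CPM. Ligand and receptor were positive together in 4 of 50 Gja5+Cd44+ YS cells, in 0 of 36 Gja5-Cd44+ YS cells and in 1 of 44 CR cells.

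Ackr3 was at 5.52 CPM in Gja5+Cd44+ YS cells (interval 4.24 to 7.06), 36.1 CPM in Gja5-Cd44+ YS cells (32.1 to 40.4) and 4.37 CPM in CR cells (3.13 to 5.96). Positive cells numbered 6 of 50 (12%), 2 of 36 (5.56%) and 4 of 44 (9.09%), with intervals that overlap. The Gja5-Cd44+ YS level was 6.54-fold that of Gja5+Cd44+ YS cells, but 84.4% of its counts came from 1 cell. The highest level of a cell there was 502.8 CPM, and without the cell of highest level in each sample the ratio was 1.18-fold. Kitl was at 55.8 CPM (51.5 to 60.3), 50.1 CPM (45.4 to 55.1) and 30.3 CPM (26.8 to 34.1) in the same order, with 18 of 50 (36%), 11 of 36 (30.6%) and 15 of 44 (34.1%) cells positive. Its ratio of Gja5+Cd44+ YS to Gja5-Cd44+ YS cells was 1.11-fold, and the interval of 0.983 to 1.26 includes 1. Against CR cells it was 1.84-fold (1.60 to 2.13), although the shares of positive cells differed by less than their intervals.

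**Figure D5:**
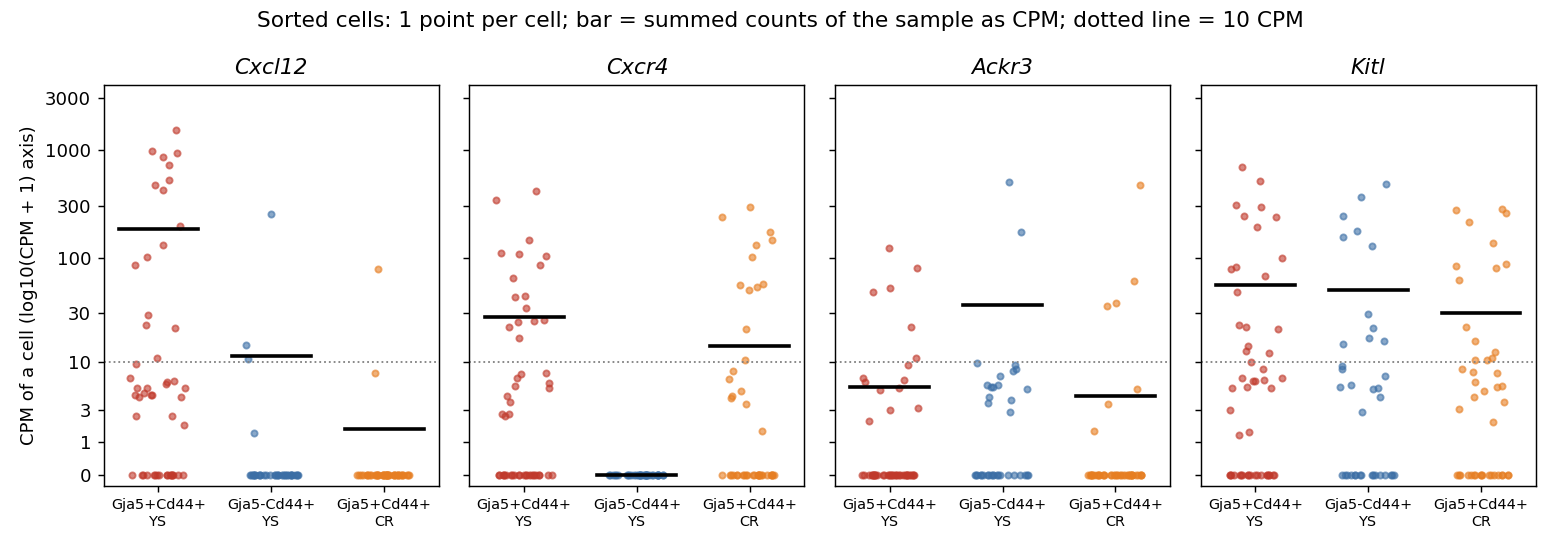
CPM of each gene in every sorted cell, on a log10(CPM + 1) axis, by population. Each point is a cell, the bar is the summed level of the sample and the dotted line marks 10 CPM. Cxcl12 cells above the line number 16, 3 and 1, and no Gja5-Cd44+ YS cell has a Cxcr4 count.

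The sorted labels were checked on the gating genes. Gja5 was positive in 50 of 50, 1 of 36 and 44 of 44 cells of Gja5+Cd44+ YS, Gja5-Cd44+ YS and CR, and Cd44 in 47, 29 and 43 of them. Cdh5 was positive in every sorted cell, at 1216, 286.7 and 727.2 CPM in sum. Kit, the receptor of Kitl, was at 28.8 CPM (13 cells positive), 69.6 CPM (19 cells) and 145.3 CPM (31 cells), and Kitl and Kit were positive in the same cell in 4 of 50, 6 of 36 and 12 of 44 cells. Cells positive for a blood gene numbered 16, 27 and 26. Without them Cxcl12 was 2.33-fold higher in Gja5+Cd44+ YS than in Gja5-Cd44+ YS cells (1.88 to 2.92), a comparison left with 34 and 9 cells. That ratio rests on 1 cell, which gave 96.9% of the Cxcl12 counts of the whole Gja5-Cd44+ YS sample. With blood-positive cells left out, Cxcr4 was 0.882-fold in Gja5+Cd44+ YS against CR cells (0.678 to 1.15). Against CR cells Cxcl12 was then 92.8-fold higher (39.6 to 286.5). Mesenchymal markers summed to 621.2, 1691 and 245.7 CPM, with 11, 10 and 7 of the 11 genes above 0, and erythroid markers to 23323, 11724 and 133.9 CPM, with 8, 8 and 5 of the 8 genes above 0. Leukocyte and progenitor markers summed to 70.8, 484.6 and 264.8 CPM. Their part in the levels of the 4 genes was not tested.

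Of the partners of Cxcl12 and its receptors, 27 of 31 listed genes were tested between E10.0 and E8.5 in all cells, of which 11 rose and 2 fell. Over all 13929 genes tested 31% were called and 15.2% were called higher. The median log2 fold change of the list was 0.83, against 0.04 over all genes. The clearest were Mif, a cytokine that also binds Cxcr4, which fell by 2.16 on the log2 scale (SE 0.30, edgeR adjusted p = 6.5e-07), and the G protein subunit Gnai2, which rose by 1.31 (SE 0.26, adjusted p = 0.000231). The integrin Itgb1 rose by 1.08 (SE 0.22, edgeR adjusted p = 0.000263), and Dpp4, a protease that trims Cxcl12, rose by 5.45 (SE 1.23, edgeR adjusted p = 0.000849). Dpp4 was at 1.497 ± 2.71 CPM in the 10 E8.5 libraries and 73.8 ± 41.01 CPM in the 9 E10.0 libraries, and Mif at 3008 ± 387.1 and 712.2 ± 429.5 CPM (SD). In Cdh5-positive cells 10 of 26 rose and 2 fell, where 24.6% of all genes were called. In the Gja5 split none of the 17 tested was called, where 0.16% of all genes were called.

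Of 23 genes around Kit, all were tested, 5 rose and 4 fell, near the 31% called over all genes, and the median log2 fold change was -0.04. The kinase Fyn rose by 1.92 (log2, SE 0.25, edgeR adjusted p = 2.86e-07), the ubiquitin ligase Cbl by 1.16 (SE 0.32, adjusted p = 0.00564) and the PI3-kinase subunit Pik3r1 by 0.93 (SE 0.27, adjusted p = 0.00782), while Ptpn6, a phosphatase of blood cells, fell by 3.23 (SE 0.75, edgeR adjusted p = 0.00124). Kit itself was not called: it was at 61.0 ± 33.5 CPM in the E8.5 and 45.5 ± 42.2 CPM in the E10.0 libraries (SD), with ranges of 24.5 to 122.8 and 10.04 to 125.4 CPM that overlapped. In Cdh5-positive cells 4 rose and 3 fell, where 24.6% of all genes were called. In the Gja5 split none of the 20 tested was called, where 0.16% of all genes were called. Of 28 genes of other niche signals, 19 were tested, of which 3 rose and 3 fell, a share close to the 31% called over all genes, with a median log2 fold change of 0.14. Among them the Notch ligand Jag1 rose by 4.05 (SE 0.89, edgeR adjusted p = 0.000655), the growth factor Igf2 by 2.92 (SE 0.75, adjusted p = 0.0031) and the cytokine receptor subunit Il6st by 1.70 (SE 0.51, adjusted p = 0.00981). In Cdh5-positive cells 3 of 18 rose and 2 fell, where 24.6% of all genes were called. In the Gja5 split, where 0.16% of all genes were called, 1 of 12 was called. This was Igf2, which was higher in Gja5-positive cells by 1.08 (log2, SE 0.17, edgeR adjusted p = 0.0225).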

How the data were processed

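Single cells were profiled with STRT in 40 yolk sac stage libraries and 3 sorted samples, labelled YS or CR. The values are counts per gene and cell as deposited by the authors. Per the submitters' processing notes the build was mm10, with aligner and counting not given in the sources used here. The 92 spike-in and 3 reporter rows of the sorted tables were left out. Cells needed at least 1000 genes and 5000 counts. No doublet caller was run, and blood-marker cells were left out as an alternative. Counts of cells were summed per library, kept where at least 3 cells remained, and tested with edgeR 4.0.16 (quasi-likelihood, TMM, Benjamini-Hochberg, adjusted p under 0.05, filterByExpr) in R 4.3.3. All stages shared 1 fit. The Gja5 and Cdh5 splits were fitted with the library as a block, since both sides come from the same library. DESeq2 1.42.0 was an alternative. Permutation tests and exact intervals used scipy 1.17.1. The scripts were tested on simulated data with 200 changed genes. At a true log2 change of 2, 38% to 51% were recovered in the E10.0 over E8.5 and split fits, and 6% in the Gja5 interaction. At a true log2 change of 4 these shares were 55% to 90% and 35%. The lack of calls in the interaction therefore cannot show that the splits were alike.

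The 4 members and all lists were chosen with earlier results of these data known. Genes named beside the members are those of up to 4 lowest adjusted p per partner list and comparison among the called, and the 3 of highest Spearman correlation with each member. A gene that this rule names is not reported here. Groups come from the stage and sort labels. Replicates are numbered in accession order and do not pair libraries. No cell column was shared between libraries. The sorted samples have no replicates and were not tested. Promoter sequences are from RefSeq (GRCm38.p6), and 4 of 4 members matched.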

Additional observations from a re-analysis of the deposited data

Results flagged for a closer look

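Each of these libraries stood apart from the others of its stage, with a gap to its neighbour that exceeds Dixon's 95% critical value for the share of the group's range. Of 16 groups tested 8 gave such a library. Chance gives about 1 in 20 for normally distributed values, a rate that does not hold here, since many of these groups are mostly at 0 and a single library above 0 then stands apart. For Cxcl12 they were E8.5 replicate 10 at 1.56 CPM, E9.0 replicate 1 at 15.3 CPM and E10.0 replicate 8 at 252.6 CPM. In each, 1 cell gave at least 96.9% of the Cxcl12 counts. For Cxcr4 they were E8.5 replicate 4 at 0.276 CPM and E9.5 replicate 10 at 11.2 CPM, in which 1 cell gave 68.2% of the counts. For Ackr3 they were E8.5 replicate 10 at 0.734 CPM, E9.0 replicate 4 at 4.13 CPM and E10.0 replicate 7 at 24.9 CPM, the last from a single cell. No Kitl library stood apart in this way.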

How the results depend on the processing

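The log2 fold changes below are of the first group over the second. With DESeq2 the counts of called genes were 40 (E8.5 over E8.0), 126 (E9.0 over E8.5) and 4 (E9.5 over E9.0) in all cells, 22, 97 and 10 in Cdh5-positive cells, 735 in the Cdh5 split, 130 in the Gja5 split and 123 for its interaction with stage. DESeq2 gave Cxcl12 17.88 and 17.71 for E8.5 over E8.0 in all and Cdh5-positive cells, where E8.0 is at 0. It gave Ackr3 -1.30 and Kitl 1.98 for E10.0 over E9.5, Ackr3 0.99 for E10.0 over E8.5, Kitl 3.36 in the Cdh5 split, and Cxcl12 7.26 and Cxcr4 6.25 in the Gja5 split. Kitl for E10.0 over E9.5 was 1.97 with DESeq2 size factors and 1.88 with no filter, and both passed the threshold. With no filter 341 genes (Cdh5 split) and 51 (Gja5 split) were called, and Cxcl12 was 6.67 in the latter.

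With consecutive batch titles summed, 1, 0 and 40 genes were called in all cells (E9.0 over E8.5, E10.0 over E9.5, E10.0 over E8.5), and 1, 2, 0, 0 and 9 in Cdh5-positive cells over the 4 neighbouring comparisons and E10.0 over E8.5. E10.0 over E8.5 was then 5.28, 7.13, 2.86 and 1.56 for Cxcl12, Cxcr4, Ackr3 and Kitl in all cells and 5.16, 6.92, 2.71 and 1.32 in Cdh5-positive cells, none called, with fewer samples. Kitl was 0.42 for E8.5 over E8.0 in all cells, and for E9.5 over E9.0 in Cdh5-positive cells Ackr3 was -0.0087 and Kitl -0.64. With Cdh5 at 1 count or more 77, 0 and 3711 genes were called (E9.0 over E8.5, E9.5 over E9.0, E10.0 over E9.5), Kitl was -0.10 for E8.5 over E8.0, and for E9.5 over E9.0 Ackr3 was -0.20 and Kitl -0.53. With both gates at 1 count the Gja5 split called 0 genes in edgeR. With Cdh5 at 100 CPM or more, chosen after the data were seen, 1, 68, 0, 1 and 2031 genes were called. E10.0 over E9.5 was then -0.48, -0.91, -0.52 and -0.19 for the 4 members, and E10.0 over E8.5 was 3.66 for Ackr3 and 1.21 for Kitl, neither called. With at least 5 cells per library 0 (E9.5 over E9.0) and 52 genes (E10.0 over E9.5) were called, Cxcr4 was -0.70 for E10.0 over E9.5, and for E10.0 over E8.5 Ackr3 was 3.73 and Kitl 1.68, neither called. Without blood-marker cells 2 and 10 genes were called in the same comparisons, Kitl was -0.47 for E9.5 over E9.0, Cxcl12 -0.36 for E10.0 over E9.5, and in the Gja5 split Cxcl12 was 8.06 and Kitl -0.10. That gate left too few cells for the other stage comparisons, the Cdh5 split and the shares, which were not run.

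No paired analysis was possible because the labels give no replicate numbers that join stages. In the splits the library was the replicate block. With no replicate block and stage as a covariate 246 genes were called in the Cdh5 split, and in the Gja5 split Cxcl12 was 6.75 and Cxcr4 5.89, as before not called. With at least 2 cells per side 344 genes were called in the Cdh5 split, and Kitl was -0.076 in the Gja5 split and -0.86 in its interaction. The Cxcr4 share difference at 50000 counts was 7.83 points (exact permutation p = 0.0217). The cause of these changes was not tested.

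In sorted samples, without the cell of highest level, log2 ratios were 8.60 (Cxcl12), 6.06 (Cxcr4) and -0.23 (Ackr3) for Gja5+Cd44+ over Gja5-Cd44+ YS, 8.04 (Cxcl12) for Gja5+Cd44+ YS over CR, and 0.56 (Cxcl12), 5.29 (Cxcr4) and -0.77 (Ackr3) for CR over Gja5-Cd44+ YS. Without blood-marker cells they were 1.22, 3.69, -1.02 and -0.27 for the 4 members in the first, -0.18 (Cxcr4) and -0.35 (Ackr3) in the second, and -5.31, 3.87, -0.67 and -1.28 in the third. By the mean of single-cell CPM they were -1.46 (Ackr3) and 0.36 (Kitl), 0.10 (Cxcr4) and -0.86 (Ackr3), and -2.01 (Cxcl12), -0.60 (Ackr3) and -0.36 (Kitl).

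Leaving out 1 library at a time, called genes ran over 0 to 2, 39 to 91 and 0 to 1 for the first 3 neighbouring comparisons in all cells, 15 to 47 (E9.0 over E8.5) and 551 to 1498 (E10.0 over E9.5) in Cdh5-positive cells, 14 to 222 in the Cdh5 split, 4 to 20 in the Gja5 split and 0 to 914 for the interaction. In all cells Ackr3 ran from -0.61 to 3.15 and Kitl from -0.36 to 0.19 (E8.5 over E8.0), Ackr3 from -0.69 to 1.42 (E9.5 over E9.0), Cxcl12 from -0.25 to 3.28, Ackr3 from -1.16 to 2.77 and Kitl from 1.70 to 2.48 (E10.0 over E9.5), and Cxcl12 from 3.83 to 7.71 and Ackr3 from 1.01 to 5.56 (E10.0 over E8.5). In Cdh5-positive cells Ackr3 ran from -0.69 to 3.12 and Kitl from -0.20 to 0.17 (E8.5 over E8.0), Ackr3 from -0.67 to 2.76 and Kitl from -0.35 to 0.34 (E9.5 over E9.0), Cxcl12 from -2.06 to 2.72, Cxcr4 from -0.29 to 1.01 and Ackr3 from -2.72 to 2.58 (E10.0 over E9.5), and Cxcl12 from 3.70 to 7.84, Ackr3 from 0.85 to 5.42 and Kitl from 1.84 to 2.23 (E10.0 over E8.5). In the Gja5 split Cxcl12 ran from 5.97 to 7.73, and its share difference from 5.07 to 10.8 points. The Ackr3 call in Cdh5-positive cells was lost without any 1 of 17 libraries. Of 1578 such values with a test, 1506 kept direction and side of the threshold. Many of them leave out a library of a stage outside the comparison or belong to comparisons far from the threshold. The number is therefore not a measure of stability. Few cells per library and values resting on 1 cell limit Cxcl12, Cxcr4 and Ackr3.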
